A study of Mus musculus with 16 samples.

Results

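The genes described here, across all groups of the series, are Lrrc15, Lpar3, Calcoco2, Pga5, Spic, Cdhr1, Spp1, Bhmt2 and Hhip. They were chosen by measured values in earlier results of these same arrays, with no numerical limit stated. Large rises with the FGF receptor inhibitor PD173074 (0h vs DMSO) or large falls after 24h of stimulation were sought. The reference for the falls is not named and is taken here as 0h (24h vs 0h). The chosen genes are 9 of 20972 with a named probe on the array, and all 9 were among the 15649 genes bright enough to be tested. The working description, raised by the inhibitor and lost on stimulation, did not hold for every gene. Bhmt2 was not higher with the inhibitor, and Spp1 and Cdhr1 stood only about 1 log2 unit higher.

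The cells were E14tg2a embryonic stem cells of the mouse, cultured cells of the early embryo, grown on gelatin in serum with LIF, a cytokine that sustains self-renewal. Per the series' design text they carried a fusion protein of the kinase c-Raf, constitutively active once tamoxifen induces it. The 16 arrays form 8 groups of 2 replicates. The DMSO group had vehicle only, and the 0h group had 250 nM PD173074 for 24 hours and no induction. The groups 30m, 1h, 2h, 4h, 8h and 24h had the same 24 hours of inhibitor and then 250 nM 4-hydroxytamoxifen (4OHT) for that time, with PD173074 still present per the design text. The promoter that drives the fusion and whether the line is 1 clone are not given in the sources used here. Separate cultures are not stated for the 2 replicates of a group, and every p-value below therefore rests on a spread that could be purely technical. Cells given 4OHT without the fusion or without the inhibitor were not analysed here, so an effect of 4OHT itself and one of c-Raf cannot be told apart. None of the groups had the inhibitor for the longer times without 4OHT. Added time in culture and in inhibitor therefore cannot be told apart from stimulation either.

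FGF receptors pass their signal through Ras, c-Raf and Mek to the kinase Erk. In mouse embryonic stem cells the FGF4 that the cells secrete keeps Erk active, and Erk activity moves them out of the naive state of pluripotency, in which blocking it holds them. The 9 genes encode proteins of different kinds, and no shared pathway is known to join them: surface and secreted proteins (Lrrc15, Lpar3, Cdhr1, Hhip, Spp1), enzymes (Pga5, Bhmt2), an autophagy receptor (Calcoco2) and a transcription factor (Spic).

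Levels are log2 processed signals minus the 75th percentile of the same array, so 0 is that percentile and 1 unit is 2-fold. They compare arrays for 1 probe, not genes with each other. Between 54.9% and 67.2% of the spots of an array were well above background, and 2 arrays per group limit the precision. Which array belongs to which sample follows the headings of the deposited value table, and the scanner files are attached to another sample for 8 of the 16 arrays. By the table's headings, slide 1 holds replicate 1 and slide 2 replicate 2 of every group. With the table's assignment the pooled replicate SD of the 9 genes ran from 0.42 to 1.05, and with the other from 1.26 to 2.70. The genes were chosen under the first. Embryonic stem cell markers were well above background in every group, 10 of 10 of the fixed list. Erk activity has its own readout in 18 feedback and target genes. At 0h 4 were lower and 0 higher than in DMSO, where 1.28% of all tested genes were lower and 2.22% higher. With the replicate number as a block 10 were lower, against 6.71% of all. At 8h 13 were higher and 0 lower than at 30m and 1h, where 5.34% of all were higher and 6.55% lower. With the block 18 were higher, against 11.3% of all.

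RefSeq (GRCm38.p6) gave 8 promoter windows for 7 of the 9 genes, each the 250 bases before a transcription start. The windows of 3 genes are shown as examples of different kinds of product: Lrrc15, a surface protein, Spic, a transcription factor, and Spp1, a secreted protein. Capitals mark a match to a searched motif on either strand.
Lrrc15 (GRCm38.p6, chr16:30283255-30283504, minus strand, 5′ to 3′): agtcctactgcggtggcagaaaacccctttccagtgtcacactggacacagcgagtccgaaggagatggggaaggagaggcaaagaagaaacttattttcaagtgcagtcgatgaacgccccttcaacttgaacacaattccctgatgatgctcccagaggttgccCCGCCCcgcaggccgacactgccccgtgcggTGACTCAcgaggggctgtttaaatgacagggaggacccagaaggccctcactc
Spic (GRCm38.p6, chr10:88683024-88683273, minus strand, 5′ to 3′): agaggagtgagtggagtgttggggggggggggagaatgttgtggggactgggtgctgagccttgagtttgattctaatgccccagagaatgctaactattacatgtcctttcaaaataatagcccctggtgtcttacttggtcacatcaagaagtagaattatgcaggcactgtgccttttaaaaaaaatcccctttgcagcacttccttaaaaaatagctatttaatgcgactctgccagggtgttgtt
Spp1, first start (GRCm38.p6, chr5:104434861-104435110, plus strand, 5′ to 3′): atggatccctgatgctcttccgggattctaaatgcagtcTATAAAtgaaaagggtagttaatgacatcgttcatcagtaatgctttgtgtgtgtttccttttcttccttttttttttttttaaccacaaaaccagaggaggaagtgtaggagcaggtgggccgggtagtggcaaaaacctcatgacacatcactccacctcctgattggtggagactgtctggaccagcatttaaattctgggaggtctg
The TATA box, searched as TATAAA, was in 1 of the 8 windows, the Spp1 window shown, and in 12.4% of all 32851 promoter windows of that length. The AP-1 motif, searched as TGACTCA, was in 1 window, that of Lrrc15, and in 4.46% of all. The GC box, searched as GGGCGG, was in 4 windows (Bhmt2, Hhip, Lpar3 and Lrrc15) and in 32.7% of all. The octamer ATGCAAAT, a site of POU factors such as Pou5f1, was in 1, the window of a second Spp1 start, and in 1.60% of all. The ETS motif, searched as CCGGAAGT, was in 0 of 8 windows and in 2.88% of all. The STAT motif TTCCNGGAA (0.913% of all) and the Esrrb motif TCAAGGTCA (0.387% of all) were in 0 of 8 as well. The window of Spic held none of the 7 motifs. No match says only that these letters are not in this window, and a match is a string of letters, not a site. The motifs do not overlap one another in the windows shown. GC content ran from 35.6% at the second start of Spp1 to 76.0% at Hhip, with a median of 52.4% over all windows.

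The first question is how the inhibitor changed these genes in unstimulated cells. Because 0h vs DMSO was used to choose them, the values are a description without a test. Both 0h arrays stood above both DMSO arrays for 8 of the 9 genes, as they did for 24.8% of all tested genes, a share from which nothing is read here. Differences ran from 1.04 to 5.50 log2 units in those 8.

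Lrrc15, a membrane protein with leucine-rich repeats known from mesenchymal cells, stood far higher at 0h. Its replicate 1 and 2 arrays read -5.11 and -4.35 in DMSO, against 0.34 and 1.19 at 0h, a difference of 5.50 ± 0.69 (SE, n = 2 arrays per group), or 45.2-fold. The first DMSO array was not well above background, so the size is uncertain, and with the normexp background correction, whose offset of 50 shrinks differences of dim signals by construction, it was 3.34.

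Lpar3, a G protein-coupled receptor for the lipid lysophosphatidic acid, was dark in DMSO. Its arrays read -7.01 and -7.34 there, neither well above background, and -2.37 and -2.38 at 0h. The change is therefore a bound of at least 5.88-fold, taken between the 0h mean and the lowest signal well above background on the dim arrays.

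Calcoco2, known as the autophagy receptor Ndp52, which links targets to the autophagosome membrane, read -0.67 and -0.16 in DMSO, against 3.12 and 4.61 at 0h, a difference of 4.28 ± 0.86. Hhip, a membrane protein that binds Hedgehog ligands and holds them from their receptor, read -3.55 and -3.20 in DMSO, against 0.59 and 0.49 at 0h, a difference of 3.92 ± 0.55. Pga5, a pepsinogen, the precursor of a digestive aspartic protease, read -0.54 and -0.71 in DMSO, against 2.77 and 2.91 at 0h, a difference of 3.47 ± 0.42. In these 3 genes the 0h arrays lay over 3 log2 units above the DMSO arrays.

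Spic, an ETS-family transcription factor best known from macrophages of the spleen, read -1.82 and -1.17 in DMSO, against 0.93 and 2.05 at 0h, a difference of 2.99 ± 0.90. Cdhr1, a cadherin-related protein of photoreceptors, read 0.39 and 0.16 in DMSO, against 1.55 and 1.38 at 0h, a difference of 1.19 ± 1.05. The wide error of Cdhr1 comes from its 8h and 24h arrays, which share the fit, since the ranges at 0h and in DMSO were narrow and apart. Spp1, osteopontin, a secreted glycoprotein that binds integrins, read 3.15 and 3.23 in DMSO, against 4.29 and 4.16 at 0h, a difference of 1.04 ± 0.47.

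Bhmt2, an enzyme that makes methionine from homocysteine, differed from the others. It read -1.61 and -2.21 in DMSO, against -2.53 and -2.12 at 0h, a difference of -0.41 ± 0.63, and the ranges overlapped. DMSO was its highest group.

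**Figure D1:**
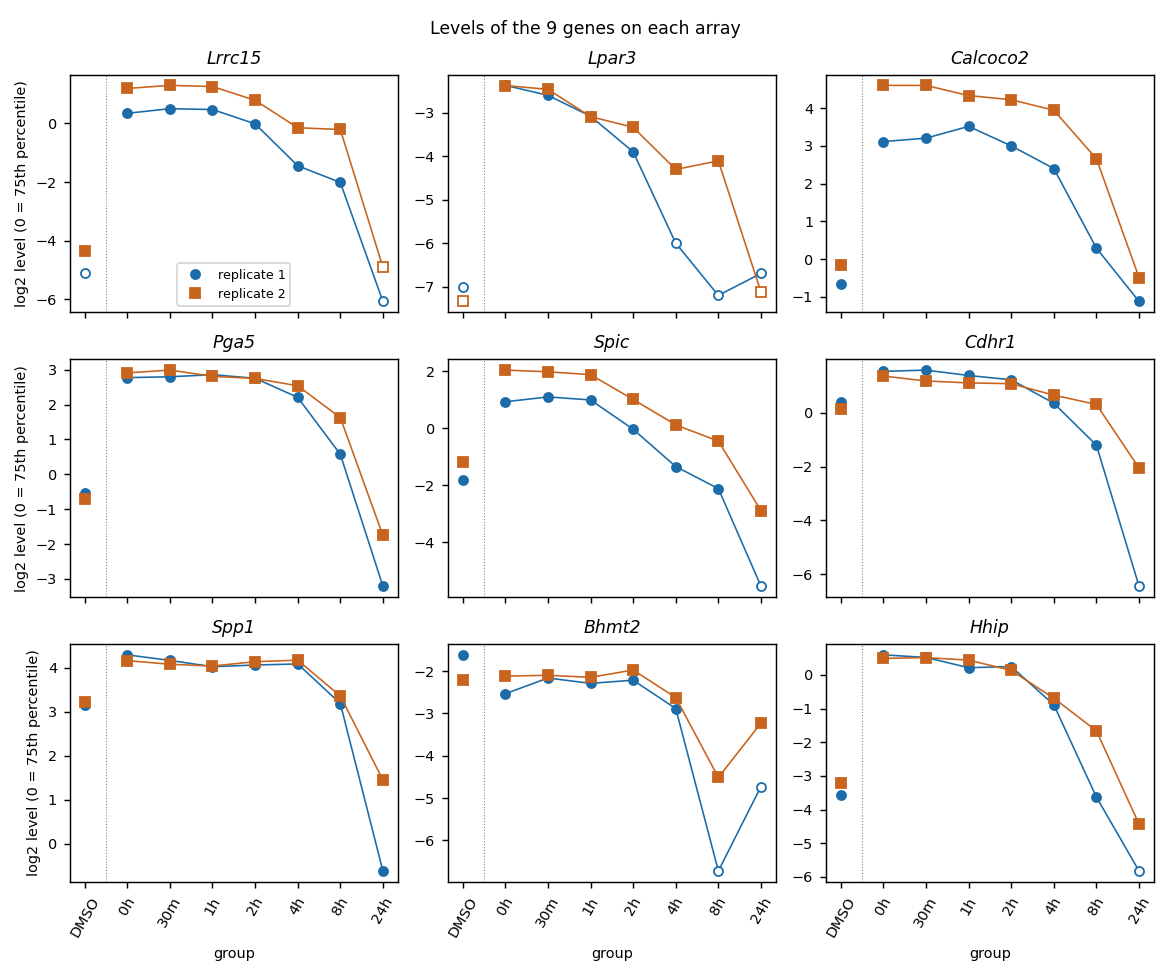
Levels of the 9 genes on each array, as log2 signal with 0 at the array's 75th percentile (vertical axis, a separate scale per gene) against group (horizontal axis). Circles are replicate 1 and squares replicate 2, lines join the inhibitor-treated arrays of a replicate, and open symbols are arrays not well above background. In 8 genes the 0h arrays lie above DMSO, and in all 9 the 8h arrays lie below those of 30m and 1h.

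The next question is when the levels changed after 4OHT was added. The arrays at 30m, 1h, 2h, 4h and 8h took no part in choosing the genes. Those at 2h, 4h and 8h were each tested against the mean of 30m and 1h. The genes were chosen in part for falls by the end of the same course, on the way to which these times lie. Falls at these times are therefore not independent of the choice. The shares of all genes given for them are a description, from which no excess among the 9 is read. At 8h 5 of 9 genes fell and 0 rose: Bhmt2, Hhip, Pga5, Lpar3 and Spic (limma adjusted p under the threshold of 0.05 over all tested genes). Over all tested genes 6.55% fell and 5.34% rose in this comparison. All 9 genes had both 8h arrays below all 4 arrays at 30m and 1h, against 22.1% of all genes. The median difference of the 9 was -2.44, against -0.05 over all tested genes.

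Bhmt2 was called lower at 8h. Its arrays stood at -2.16 and -2.10 at 30m and -2.29 and -2.15 at 1h, and at -6.72 and -4.51 at 8h, the first not well above background. The difference was -3.45 ± 0.54 (limma adjusted p = 0.0045), with a size that rests in part on that dim array, and -1.06 with normexp. The 2h arrays, at -2.21 and -1.97, lay within the range of the earlier ones or just above it, and the 4h arrays read -2.88 and -2.62. At 24h they read -4.73, not well above background, and -3.23. In replicate 2, where both arrays were bright, 24h lay above 8h.

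Hhip stood at 0.52 and 0.51 at 30m, 0.21 and 0.44 at 1h, 0.25 and 0.13 at 2h, -0.89 and -0.69 at 4h and -3.63 and -1.66 at 8h. The difference at 8h was -3.06 ± 0.48 (limma adjusted p = 0.0042, 8.36-fold), and -2.16 with normexp. The 4h arrays already lay below the earlier ones without overlap, with a difference of -1.21 ± 0.48 that was not called (adjusted p = 0.175).

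Pga5 changed little in the first hours, at 2.80 and 2.99 at 30m, 2.86 and 2.81 at 1h and 2.76 and 2.75 at 2h. Both 2h arrays lay just below those of 30m and 1h, with a difference of -0.11 ± 0.36 that was not called. Pga5 then read 2.21 and 2.54 at 4h and 0.57 and 1.63 at 8h. The difference was -0.49 ± 0.36 at 4h, not called, and -1.76 ± 0.36 at 8h (limma adjusted p = 0.0136), which is 3.39-fold.

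Lpar3 had lower values from 1h on. It read -2.60 and -2.46 at 30m, -3.08 and -3.09 at 1h, -3.90 and -3.34 at 2h, -6.00 and -4.31 at 4h and -7.20 and -4.11 at 8h. The replicate 1 arrays at 4h and 8h were not well above background. The difference was -0.81 ± 0.70 at 2h, -2.34 ± 0.70 at 4h (adjusted p = 0.0849) and -2.85 ± 0.70 at 8h (limma adjusted p = 0.0276). With normexp these were -0.75 at 4h and -0.82 at 8h, and the 8h value was -1.30 without 8h replicate 1 and -4.39 without 8h replicate 2.

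Spic had lower values from 2h on within each replicate, although its 2h range overlapped that of 1h. It read 1.11 and 1.99 at 30m, 1.00 and 1.89 at 1h, -0.03 and 1.02 at 2h, -1.34 and 0.12 at 4h and -2.11 and -0.45 at 8h. The differences at 2h and 4h (-2.10 ± 0.78 at 4h, adjusted p = 0.150) were not called, and that at 8h was called at -2.78 ± 0.78 at 8h (limma adjusted p = 0.0452). Replicate 2 was the higher array in every group.

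The remaining 4 genes were not called at 8h in this fit, which has no block for the replicate number. With that block Lrrc15 and Calcoco2 were called, as given below. Lrrc15 read 0.50 and 1.30 at 30m, 0.47 and 1.26 at 1h, -0.01 and 0.79 at 2h, -1.44 and -0.15 at 4h and -2.01 and -0.21 at 8h, a difference of -1.99 ± 0.60 at 8h (limma adjusted p = 0.0575). Calcoco2 read 3.21 and 4.61 at 30m, 3.52 and 4.34 at 1h, 3.0 and 4.23 at 2h, 2.40 and 3.95 at 4h and 0.29 and 2.66 at 8h, a difference of -2.44 ± 0.75 (limma adjusted p = 0.0623). In both genes the 2 arrays of a group lay far apart while each replicate moved downward.

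Cdhr1 read 1.60 and 1.19 at 30m, 1.40 and 1.12 at 1h, 1.23 and 1.09 at 2h, 0.36 and 0.66 at 4h and -1.20 and 0.32 at 8h, a difference of -1.77 ± 0.91 (limma adjusted p = 0.254). Spp1 was flat through 4h, at 4.17 and 4.08 at 30m, 4.02 and 4.04 at 1h, 4.06 and 4.14 at 2h and 4.09 and 4.17 at 4h, and read 3.19 and 3.36 at 8h. Its difference at 4h was 0.05 ± 0.41 and at 8h -0.81 ± 0.41 (limma adjusted p = 0.249). The 8h arrays of Spp1 were close to each other and apart from every earlier inhibitor-treated array, so its error reflects the gap between its 24h arrays.

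At 4h 0 of 9 genes were called by limma, with 2.53% of all genes called lower and 2.55% higher. In that fit 4 of the 9 had an unadjusted p under 0.05, as had 3383 of all 15649 genes. With median centring 129 genes of the whole array were called higher and 46 lower at 4h, against 399 and 396. Of the 9 genes 7, all but Calcoco2 and Spp1, had both 4h arrays below the 4 earlier arrays, against 17.3% of all genes. At 2h 0 of 9 were called, against 0.0192% of all genes called lower and 0.0831% higher. An unadjusted p under 0.05 was found there for 0 of the 9 and for 822 of all 15649 genes. Lpar3 and Pga5 had both 2h arrays below the earlier ones, against 6.5% of all genes.

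Arrays of 1 slide, which all carry the same replicate number, deviated together across groups. With the replicate number as a block, 7 genes fell at 8h (15.7% of all genes), adding Calcoco2 (adjusted p = 0.001) and Lrrc15 (adjusted p = 0.000268), and 3 fell at 4h (9.82% of all genes): Lrrc15 (adjusted p = 0.0016), Spic (adjusted p = 0.0049) and Lpar3 (adjusted p = 0.0332). Cdhr1 and Spp1 stayed uncalled at 8h (adjusted p = 0.169 and 0.161), as did all 9 genes at 2h, where 0.0767% of all genes were called lower and 0.396% higher. A fit of the 30m, 1h and 8h arrays alone called 0 of 9, where 43 of all 15649 genes were called lower and 157 higher. Fewer of the 9 were called without the replicate 1 array at 8h, or without any 1 array of DMSO, 0h, 30m, 1h or 2h. More were called without the replicate 2 array at 8h or without either array at 24h. Calls over the whole array changed in the same direction in those fits. Of the 16 fits that left out 1 array, Bhmt2 and Hhip were called in 16, Pga5 in 15, Lpar3 in 11 and Spic in 5. Without 8h replicate 1 the differences at 8h were -2.34 for Bhmt2, -2.08 for Hhip, -1.24 for Pga5 and -1.94 for Spic, and without 8h replicate 2 they were -4.55, -4.05, -2.29 and -3.61. With normexp 8 genes, all but Spp1, were called lower at 8h, and Lpar3 and Hhip at 4h. Over all 15649 genes 909 were called lower at 8h and 290 at 4h in that setting.

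**Figure D2:**
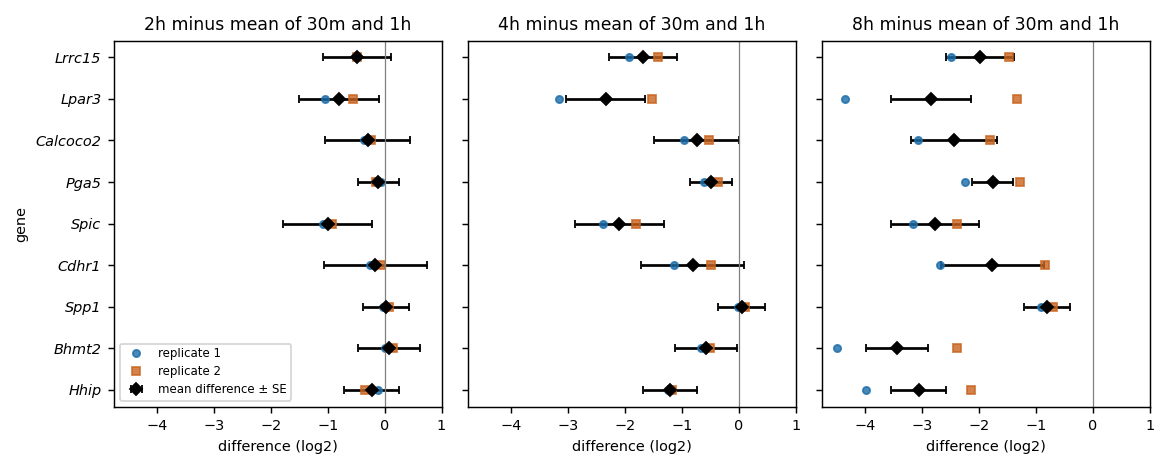
Difference of each gene at 2h, 4h and 8h from the mean of 30m and 1h, in log2 units (horizontal axis), 1 row per gene. Diamonds with bars are the fitted difference ± SE from limma, circles and squares the difference within replicate 1 and replicate 2. At 8h all symbols lie below 0, and the circles lie to the left of the squares in all 9 genes.

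Replicate 1 stood below replicate 2 at the late times. At 8h the replicate 2 array was the higher one in 9 of 9 genes, by a median of 1.80, whereas over all tested genes it was higher in 46.0% with a median of -0.05. At 24h it was higher in 8 of 9 genes, by a median of 1.45, against 43.6% of all genes. At 0h it was higher in 5 of 9, by a median of 0.14. Both arrays of Lrrc15 and Lpar3 at 24h were not well above background, so their order there carries no information. Where both arrays were bright, the largest gap was that of Calcoco2 at 8h, 2.37. The naive pluripotency factor Nanog, no member of the group, had a gap in the same direction, at 2.36 and 3.47 at 8h and -1.76 and 1.57 at 24h. Pou5f1, a core pluripotency factor, read 6.65 and 6.00 at 8h and 6.30 and 6.23 at 24h. What part this gap between the slides has in the falls was not tested. Within each replicate alone the 8h difference was below 0 in all 9 genes, with dim arrays at their measured values. These differences ran from -4.50 to -0.91 in replicate 1 and from -2.39 to -0.70 in replicate 2. The replicate 1 arrays of Lpar3 and Bhmt2 at 8h were not well above background.

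**Figure D3:**
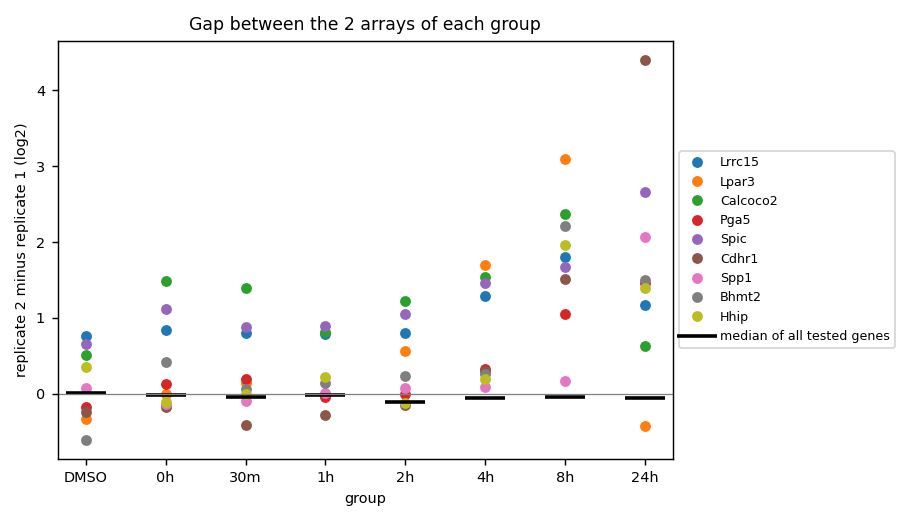
Replicate 2 minus replicate 1 in log2 units (vertical axis) for the 9 genes in each group (horizontal axis). Coloured points are genes and black bars the median over all tested genes. At 8h every gene lies above 0, and at 24h all but Lpar3 do, with both arrays of Lpar3 and Lrrc15 dim there.

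The end of the course, 24h vs 0h, was also used in choosing the genes and is given as a description. Both 24h arrays lay below both 0h arrays in 9 of 9 genes, against 31.4% of all tested genes, from which nothing is read. The arrays at 24h stood at -6.07 and -4.90 for Lrrc15 and at -6.70 and -7.12 for Lpar3, none of them well above background. These changes are bounds of at least 41.2-fold for Lrrc15 and at least 4.67-fold for Lpar3 on the processed signals, and the differences were -3.77 and -1.51 with normexp. At 24h Spic read -5.54 and -2.89 (difference from 0h -5.71 ± 0.90), Hhip -5.82 and -4.43 (-5.67 ± 0.55), Pga5 -3.21 and -1.75 (-5.32 ± 0.42) and Calcoco2 -1.12 and -0.49 (-4.67 ± 0.86). The first array of Spic, Cdhr1, Hhip and Bhmt2 at 24h was not well above background, so their values there rest in part on dim signal.

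Cdhr1 differed from 0h by -5.71 ± 1.05 at 24h, with -8.00 within replicate 1 and -3.42 within replicate 2. Spp1 read -0.62 and 1.45 at 24h, a difference of -3.81 ± 0.47. Bhmt2 had the smallest difference, -1.65 ± 0.63. In the 3 genes whose arrays were bright throughout, the mean at 8h had covered 51.1% of the log2 distance from 0h to 24h in Calcoco2, 32.7% in Pga5 and 25.1% in Spp1. At 4h it had covered 14.7%, 8.78% and 2.58%.

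Vehicle-treated cells give a second reference level. In 6 of 9 genes, Pga5, Spic, Cdhr1, Spp1, Bhmt2 and Hhip, both 24h arrays lay below both DMSO arrays. Over all tested genes the share was 29.5%, from which nothing is read, since falls by 24h were part of the choice. The differences from DMSO were -4.52 ± 1.05 for Cdhr1, -2.77 ± 0.47 for Spp1, -2.72 ± 0.90 for Spic, -2.06 ± 0.63 for Bhmt2, -1.86 ± 0.42 for Pga5 and -1.75 ± 0.55 for Hhip. Both groups took part in choosing the genes, so no test is given. Calcoco2, Lrrc15 and Lpar3 ended with ranges that overlapped those of DMSO, and Lpar3 was not well above background in either. In these bulk samples fewer cells that express a gene and less RNA per cell cannot be told apart.

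The order of the groups was similar among most of the genes. In Lrrc15, Calcoco2, Pga5 and Spic the means of 0h, 30m and 1h were the top 3 and their ranges overlapped, and 2h, 4h, 8h, DMSO and 24h followed in that order. Neighbours in this order overlapped from 2h to DMSO in Spic, while in Pga5 every neighbour from 1h downward was apart. In Hhip the 8h and DMSO ranges overlapped, and in Spp1 likewise. In Cdhr1 DMSO lay between 4h and 8h, overlapping both. In Lpar3 the groups 0h, 30m, 1h and 2h were each apart from the next, and from 4h on neighbours overlapped (8h, 24h and DMSO).

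Of the 9 genes 7 had 1 probe and 2 had a second probe, which the choice of genes did not use although it was read on the same arrays. The second probe of Calcoco2 was well above background on all 16 arrays and gave 4.27 for 0h minus DMSO and -2.54 for 8h minus the mean of 30m and 1h, against 4.28 and -2.44 for the first. Over the 16 arrays the 2 probes had a Pearson r of 0.999. The second probe of Hhip was dimmer and well above background on 8 arrays, those of 0h, 30m, 1h and 2h, with means of -3.22, -3.40, -3.24 and -3.88. It was not well above background in DMSO, 4h, 8h and 24h, so no size is given. These are descriptions.

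**Figure D4:**
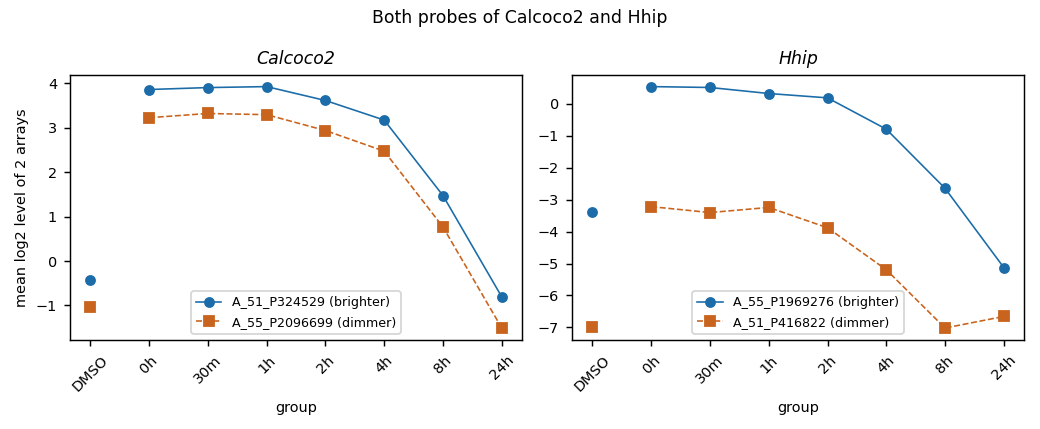
Mean log2 level of 2 arrays (vertical axis) in each group (horizontal axis) for the 2 probes of Calcoco2 and of Hhip. Circles are the brighter probe, squares the dimmer one, and lines join the inhibitor-treated groups. The probes of Calcoco2 run in parallel, and the dimmer probe of Hhip is not well above background in DMSO, 4h, 8h and 24h, where its points have no order.

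Across the 16 arrays the profiles of the genes correlated with Pearson r from 0.311 (Bhmt2 with Lrrc15) to 0.972 (Hhip with Pga5). Without Bhmt2 the lowest was 0.629, between Spp1 and Lpar3. These are descriptions of arrays that share groups and slides, over genes chosen for similar changes. The genes outside the group nearest to the mean of the 9 standardised profiles, by Pearson r over the 16 arrays, were Cst3 (0.993), Serpinb1a (0.989), Id4 (0.989), Anxa6 (0.985), Chst8 (0.984), Fam81a (0.984), Ndrg4 (0.984), Mok (0.983), Mtmr12 (0.983) and Cox20 (0.982). Cst3, the secreted protease inhibitor cystatin C, had group means of 3.79 in DMSO, 5.02 at 0h, 3.82 at 8h and 2.68 at 24h. Id4, an inhibitor of basic helix-loop-helix factors, had means of -1.28, 0.77, -0.94 and -3.11.

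For single genes the nearest outside gene was Gpsm2 for Lrrc15 (0.987), Dexi for Lpar3 (0.966), Pdlim4 for Calcoco2 (0.988), Ncam1 for Pga5 (0.991), Tubb3 for Spic (0.983), Mcf2 for Cdhr1 (0.994), Kdm3a for Spp1 (0.992), Prkca for Bhmt2 (0.963) and Cfp for Hhip (0.992). Pdlim4, a LIM-domain protein, read -0.65 in DMSO, 3.25 at 0h, 1.45 at 8h and -1.37 at 24h as group means. Ncam1, a cell adhesion molecule, read -0.53, 2.10, 0.83 and -1.69. Prkca, a protein kinase C, read -1.56, -1.34, -3.43 and -2.68, so its lowest mean was at 8h.

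The proteins these genes work with were followed by fixed lists. The shares over all genes given in this paragraph hold for every list below in the same comparison and fit. In the Hedgehog pathway, which Hhip inhibits, 0 of 15 tested genes passed at 0h vs DMSO in limma, where 2.22% of all genes rose and 1.28% fell. An unadjusted p under 0.05 was found in that fit for 3 of the 15 and for 2777 of all 15649 genes. With the replicate block 2 rose, where 8.26% of all genes rose and 6.71% fell. With median centring 228 genes of the whole array rose and 33 fell in this comparison, against 347 and 201. At 8h vs 30m and 1h 1 of 15 fell and 0 rose, where 5.34% of all genes rose and 6.55% fell. This was Ptch1, the Hedgehog receptor and a target of the pathway, at -1.12 ± 0.19 (limma adjusted p = 0.0057). With the block 2 rose and 2 fell, where 11.3% of all genes rose and 15.7% fell. At 24h vs 0h 6 fell and 1 rose, where 12.9% of all genes fell and 10.8% rose (6 lower and 3 higher with the block, against 21.1% and 18.3%). The largest fall was that of Gli2, a transcription factor of the pathway (-3.84 ± 0.93), followed by Ptch1 (-1.85 ± 0.21), Cdon, a co-receptor (-0.99 ± 0.18), Ihh, a ligand (-0.94 ± 0.18), Gli1 (-0.69 ± 0.20) and the co-receptor Boc (-0.65 ± 0.18). Sufu, a negative regulator, rose by 0.53 ± 0.16. The list's median at 24h was -0.12, against -0.01 over all tested genes.

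Among lysophosphatidic acid receptors and enzymes other than Lpar3, 0 rose and 2 of 10 fell at 0h vs DMSO (2 higher and 4 lower with the block): the receptor Lpar4 (-0.92 ± 0.18) and the lipase Liph (-1.71 ± 0.31). At 8h 2 rose and 2 fell (3 higher and 2 lower with the block). Lpar6 rose by 2.12 ± 0.30 and Liph by 2.13 ± 0.27, while Lpar1 had a difference of -0.92 ± 0.20 and the phosphatase Plpp1 one of -1.24 ± 0.31. The 4 genes that passed at 8h passed in those directions at 24h vs 0h too (5 higher and 2 lower with the block), with Lpar6 at 2.85 ± 0.35 and Lpar1 at -1.15 ± 0.24. The receptors of this family thus did not all change in 1 direction.

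Of 11 tested receptors and relatives of osteopontin, 1 rose at 0h vs DMSO: Itgb3, the integrin subunit of its best known receptor, by 2.76 ± 0.33 (limma adjusted p = 0.0042). At 8h 2 rose and 1 fell (3 higher and 1 lower with the block). Itga8 and Itgb1, the subunits of another osteopontin receptor, rose by 3.25 ± 0.36 and 1.42 ± 0.31, and Itgb5 had a difference of -0.90 ± 0.20. Between 0h and 24h 2 rose and 2 fell (3 and 3 with the block), with Itga8 higher by 4.61 ± 0.42, Itga4 at least 3.51-fold higher, Itgb3 at -1.25 ± 0.33 and Itgb5 at -0.90 ± 0.23.

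Of 13 tested autophagy receptors and partners beside Calcoco2, 1 fell at 0h vs DMSO, Optn, another autophagy receptor (-1.52 ± 0.31). At 8h 2 rose and 1 fell: Sqstm1, the receptor p62 (1.31 ± 0.37), Optn (1.26 ± 0.27) and Map1lc3b, a protein of the autophagosome membrane (-0.42 ± 0.12), with 2 lower with the block. Between 0h and 24h 1 rose, Sqstm1 by 2.15 ± 0.42, and 4 fell (2 higher with the block), among them Wdfy3 (-1.08 ± 0.18) and Gabarap (-0.76 ± 0.15). Sqstm1 and Optn had the opposite sign to Calcoco2 at 8h.

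Of 15 tested genes of the methionine cycle, 0 passed at 0h vs DMSO in limma (3 at an unadjusted p under 0.05, and 2 higher and 2 lower with the block). At 8h 1 fell, Dmgdh, an enzyme of betaine breakdown, with a difference of -1.65 ± 0.15 (limma adjusted p = 0.00028), and 1 rose and 3 fell with the block. By 24h vs 0h Gnmt, a glycine methyltransferase, differed by 1.68 ± 0.32 and Dmgdh by -1.55 ± 0.17, and both were called. Bhmt, the close relative of Bhmt2 that uses betaine, had differences of 1.93 ± 0.89 at 0h vs DMSO, -1.62 ± 0.77 at 8h and -2.20 ± 0.89 at 24h vs 0h. None of the 3 was called, and each was called with the block (adjusted p = 0.0044, 0.0028 and 0.00052).

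Of 7 tested aspartic proteases other than Pga5, 0 passed at 0h vs DMSO in limma (0 at an unadjusted p under 0.05, 0 with the block). At 8h 1 fell, the pepsinogen Pgc (-0.99 ± 0.23). At 24h vs 0h Bace2 was at least 16.7-fold higher, while Napsa (-1.98 ± 0.44), Pgc (-1.09 ± 0.27) and Bace1 (-0.75 ± 0.22) fell. Of the 2 other ETS factors of the Spi group, Spib was bright enough to be tested. It had a difference of -0.71 ± 0.20 at 8h (limma adjusted p = 0.046) and of -1.16 ± 0.20 at 4h (adjusted p = 0.0136), and was not called at 0h vs DMSO or 24h vs 0h. Of 4 tested cadherin-related and prominin genes, Prom1, a partner of Cdhr1 in photoreceptors, fell at 8h (-0.71 ± 0.19), and Prom2 rose at 24h vs 0h (2.36 ± 0.48). Of 3 tested leucine-rich repeat membrane genes, Tpbg rose at 0h vs DMSO (0.89 ± 0.19), and Lrrc32 rose at 8h (0.65 ± 0.17) and at 24h vs 0h (0.81 ± 0.20). With the block 1 more gene of each of these 2 lists fell at 0h vs DMSO, and 2 of the 3 leucine-rich repeat genes rose at 8h.

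The naive pluripotency list gives the background of the cells' state. At 0h vs DMSO 0 of 12 passed in limma (2 at an unadjusted p under 0.05, and 2 higher with the block), with a median of 0.75. At 8h 2 fell (5 lower and 1 higher with the block), Klf4 (-1.81 ± 0.50) and Tbx3 (-1.28 ± 0.36), with a median of -0.72. From 0h to 24h 9 of 12 fell and 0 rose (1 higher with the block), with a median of -2.18, among them Nanog (-4.63 ± 0.80), Klf4 (-3.46 ± 0.58), Tbx3 (-3.20 ± 0.41) and Esrrb (-2.00 ± 0.37). Nanog at 8h was at -1.63 ± 0.69 and not called.

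Summed levels of markers of other cells differed between the groups, and single markers did not all follow the sum of their list. The summed level of 11 primitive endoderm markers, in units of each array's 75th percentile signal, was 28.5 to 28.8 in DMSO, 53.6 to 57.9 at 0h, 55.0 to 74.96 at 8h and 35.5 to 42.4 at 24h. Of the list, 8 markers in DMSO and 10 at 0h were well above background on both arrays, with Pdgfra, a defining marker, not above background before 24h. Lama1 and Col4a1 passed as higher at 0h vs DMSO, 2 of 10 tested. Lama1, with log2 means of 3.32 in DMSO and 4.93 at 0h, made up a large part of the sum. At 24h vs 0h 1 of 10 rose, Gata6, a defining factor, by 4.77 ± 0.54, and 1 fell, Lama1 (-1.65 ± 0.19). The sum of 8 trophoblast markers was 7.93 to 14.3 in DMSO, 18.5 to 35.5 at 0h, 14.3 to 26.2 at 8h and 15.8 to 16.5 at 24h, with Elf5 not above background in any group and Cdx2 not in DMSO, 0h, 30m and 1h. Cdx2, Eomes and Hand1 rose at 8h, 3 of 7 tested. At 24h vs 0h 3 of 7 rose and 0 fell, Cdx2 at least 12.3-fold, Hand1 by 4.64 ± 0.30 and Krt7 by 2.85 ± 0.28, while the sum over the list was not higher. Fibroblast markers summed to 1.51 to 1.57 in DMSO, 1.99 to 2.26 at 0h, 1.14 to 1.94 at 8h and 0.996 at 24h (both arrays), with Lum and Postn not above background in any group. The part of such cells in the levels of Lrrc15 and the other genes was not tested.

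Spic and Spp1 are also known from macrophages. Of 7 measured macrophage markers 4 were well above background on both arrays in each group, and Lyz2 and Tyrobp in none. Spi1, the macrophage master regulator, was above background on no array outside the 1h group. The sum of the list was 6.999 to 7.09 in DMSO and 5.48 to 5.77 at 0h. Of 4 tested markers 0 were called at 0h vs DMSO in limma (1 lower with the block). The part of macrophages in the levels of Spic and Spp1 was not tested.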

How the data were processed

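RNA of 16 samples in 8 groups was hybridised in 1 colour to an Agilent mouse array (probe annotation mm9), read with Feature Extraction 11.0.1.1, per the file headers. The labels name Cy5, while the files hold a green channel. The deposited intensity values are background- and trend-corrected by the scanner software, with no scaling between arrays. The authors' value table holds the same intensity values rounded to 3 digits: within a tolerance of 0.6%, every spot (100%) of a scanner file equalled the value in 1 column, and at most 4.99% did in any other. Its column medians ran from 27.3 to 44.7. Scale and centring are thus known. The table's headings gave each array's sample, and the design's test and groups were kept.

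Control spots and outlier spots (147 to 240 per array) were left out, spots of a probe averaged on the log2 scale, and 27656 of 55681 probes named through RefSeq accessions (GRCm38.p6, names only), with 28025 unnamed and 0 matching several genes. A gene was its brightest probe, tested if well above background on both arrays of a group. Well above background and outliers are flags the scanner software deposited in the files (other columns, no unit). Limma 3.58.1 (R 4.3.3) fitted 8 group means over 16 arrays (8 residual degrees of freedom), with Benjamini-Hochberg adjustment over 15649 genes. The fit was tested on simulated data. Deviations of same-numbered arrays correlated at 0.33 to 0.66 over all 28 pairs of groups, so the replicate number, which is the slide, pairs the arrays.

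The members and lists were chosen with earlier results of these data known. Every member is named, list genes where called in a list comparison (and Bhmt, Nanog and Pou5f1 for reference, chosen after their values were seen), and the genes nearest by Pearson r. One list result is not reported here. Alternatives were median centring, quantile normalization, normexp (offset 50, on the median signals), no filter, both blocks, fewer groups, all probes, the value table, the other sample record, a threshold of 0.01 and leaving out each array.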

Additional observations from a re-analysis of the deposited data

How the results depend on the processing

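The calls rest on 2 arrays per group and on the sample record of the value table. With each scanner file as the sample it is attached to, 0 of the chosen genes were called at 8h. In that setting 573 of all 15819 tested genes were called higher and 50 lower at 8h. Of 38 values 19 turned sign, nearly all of them at 4h and 8h, where errors were 1.09 to 2.34. The 4h and 8h differences were then 2.30 and 2.32 for Lrrc15, 1.55 and 1.61 for Lpar3, 2.80 and 2.16 for Calcoco2, 1.97 and 1.55 for Pga5, 2.47 and 2.16 for Spic (1.31 at 2h), 2.18 and 1.92 for Cdhr1, 1.60 and 0.67 for Bhmt2 and 2.08 and 1.60 for Hhip. Spp1 was at 1.03 at 8h, and Bhmt2 at 0.0221 at 24h vs 0h. Of the list genes 0 were then called at 0h vs DMSO, 2 at 8h and 0 at 24h vs 0h.

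Among the 9 genes, the count at 8h of 5 became 8 with normexp, 0 with the compared groups alone and 2 at a threshold of 0.01, and ran from 2 to 7 when 1 array was left out. The count at 4h of 0 became 2 with normexp, 3 with the replicate block, 3 with the slide as a random block, 1 with the compared groups alone and 1 with the mean of all probes, and ran from 0 to 1 without 1 array. At 2h it was 0 in all settings run. At 4h Calcoco2 was at 0.0305 without 4h replicate 1 and at -1.52 without 4h replicate 2, and Spp1 was at -0.0858 with quantile normalization.

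Of the list genes, 9 were called at 0h vs DMSO: 3 with median centring, 29 with the replicate block, 27 with the random block, 0 with the compared groups alone, 3 at the threshold of 0.01 and 3 to 10 without 1 array. At 8h 31 were called: 19 with median centring, 50 and 49 with the blocks, 8 with the compared groups alone, 14 at 0.01 and 7 to 35 without 1 array, the lowest without 8h replicate 1. At 24h vs 0h 54 were called, 26 with the compared groups alone and 37 to 55 without 1 array. The causes were not tested. Signal over background limits Lpar3, Lrrc15, Bhmt2, Hhip, Spic and Cdhr1 at late times. With normexp the 24h vs 0h differences were -4.49 for Pga5, -4.003 for Spic, -3.71 for Cdhr1, -3.32 for Hhip and -0.68 for Bhmt2, and those of 0h vs DMSO 2.66 for Hhip and 1.20 for Lpar3.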
